A study of Homo sapiens with 4 samples.

Results

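The genes described here are 39 components of the autophagy and mitophagy machinery, chosen by name from the 59050 genes of a count table from HUES8, a human embryonic stem cell line. All 39 had a row in the table. RNA-seq compared 2 libraries labelled with the genotype WT and 2 labelled CPT2 KO, and the treatment label read WT in all 4. All were undifferentiated cells grown on Matrigel in mTeSR1, a feeder-free stem cell medium, and total RNA was extracted. CPT2 encodes carnitine palmitoyltransferase 2, the inner-membrane enzyme that lets long-chain fatty acids enter mitochondrial oxidation. The title names fatty acid synthesis and oxidation in definitive endoderm differentiation, and the question put to these libraries is whether autophagy transcripts differ with CPT2 genotype before differentiation. The labels give neither the edit nor the number of clones behind the group labelled CPT2 KO, nor whether replicates were separate cultures. The spread behind each p-value is therefore that of these 4 libraries and may be technical.

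Autophagy encloses cytoplasm in a double membrane, the autophagosome, and delivers it to lysosomes for digestion. A kinase complex around ULK1 starts the process, a lipid kinase complex around BECN1 and PIK3C3 marks the membrane with phosphatidylinositol 3-phosphate (PI3P), and a conjugation system related to that of ubiquitin attaches small ATG8 proteins (LC3 and GABARAP) to the growing membrane. Receptors tether cargo to the ATG8 proteins. In mitophagy the cargo is a mitochondrion, marked through the kinase PINK1 or by receptors in its outer membrane such as FUNDC1 and BNIP3. Much of the pathway is controlled after transcription, so transcript levels describe the supply of components and not autophagic flux.

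The libraries held 16887789 to 20460031 counts. Values below are in CPM (per-library scaled counts, with TMM factors), so that 1 count was worth 0.0485 to 0.0603 CPM. Levels of single genes are compared with each other only as CPM per kilobase of the gene length in the table. The check of the labels went against them: CPT2 had 52 and 72 counts in replicates 1 and 2 of the WT label and 233 and 170 in the CPT2 KO-labelled ones (log2 fold change 1.78, SE 0.27, edgeR adjusted p = 0.0218), a direction kept over all alternatives (1.64 to 1.95). Without replicate 1 or 2 labelled CPT2 KO the value was 1.69 or 1.87 and no longer called (edgeR adjusted p = 0.250 and 0.0663). A knockout can leave its transcript in place, so these counts do not settle the genotype. Every difference below is therefore one between libraries as labelled. Replicate 1 labelled WT stood apart, by a chi-square of counts that, divided by its degrees of freedom, was 39.6 against its own replicate and 10.5 for the CPT2 KO-labelled pair. It also held 8957 CPM over 20 hypoxia-response genes, against 2721 CPM in replicate 2 labelled WT and 3361 and 2745 CPM in the CPT2 KO-labelled libraries. The 7 stem cell markers summed to 7140 and 7411 CPM in the WT-labelled libraries and 7467 and 8299 CPM in the CPT2 KO-labelled ones. The 7 mesendoderm and endoderm markers in the table summed to 3.63 and 3.45 CPM (SOX17 and GATA6 at 0) against 250 and 42.5 CPM. Of the 5 with enough counts, edgeR called 0 (4 higher with p under 0.05 before adjustment) and DESeq2 called 5. The 4 neuroectoderm markers summed to 283 and 305 CPM against 400 and 338 CPM, nearly all of it NES, and 2 were called lower. These were SOX1, with 82 and 130 counts against 15 and 5, and SIX6, with 24 and 67 against 2 and 1 (edgeR adjusted p = 0.0164 and 0.0382). The other 2, PAX6 and NES, had positive log2 fold changes (up to 1.01), and 1 had p under 0.05 in edgeR before adjustment. The part of these cell states in the results below was not tested. Of the 6 fibroblast markers, LUM and DCN had at most 3 counts in any library, while COL1A1 and COL1A2 were present in all 4, and the sums were 193 and 222 CPM against 218 and 196 CPM.

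No member of the machinery was called between the CPT2 KO-labelled libraries and the WT-labelled ones. A gene is called when its adjusted p in edgeR's quasi-likelihood test, fitted over all 17564 genes with enough counts, is under 0.05. All 39 members had enough counts. Of these, 0 were called higher and 0 lower. Over all tested genes, 0.416% were called in either direction, 0.359% higher and 0.0569% lower. DESeq2 and limma-voom also called 0 of 39, against 1.11% and 0.353% of all tested genes. Before adjustment, 3 members had p under 0.05 in edgeR, PINK1 in the higher direction and ULK1 and WIPI1 in the lower. Over all tested genes the share was 9.04%, or 4.88% higher and 4.16% lower. Log2 fold changes were above 0 for 21 and below 0 for 18 members, with a median of 0.0026 beside 0.0017 for all tested genes. It ran from -0.67 for WIPI1 to 0.65 for PINK1, and 0 members reached a 2-fold change, against 5.44% of all tested genes.

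The intervals around these values show what size of difference the libraries allow. The 95% interval of the fold change, not adjusted for the number of genes, lay wholly inside a 2-fold change in either direction for 33 of the 39 members and inside a 1.5-fold change for 23. The 6 members with wider intervals were WIPI1, ATG4A, MAP1LC3A, GABARAP, PINK1 and TFEB. GABARAP, TFEB and MAP1LC3A had the fewest counts of all members, at most 67 in a library. Of the 17564 tested genes, 11189 had intervals inside a 2-fold change and 6171 inside a 1.5-fold change. The median SE was 0.17 on the log2 scale for the members and 0.22 for all tested genes. Median CPM, not divided by gene length, was 36.5 for the members and 15.8 for all tested genes.

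**Figure D1:**
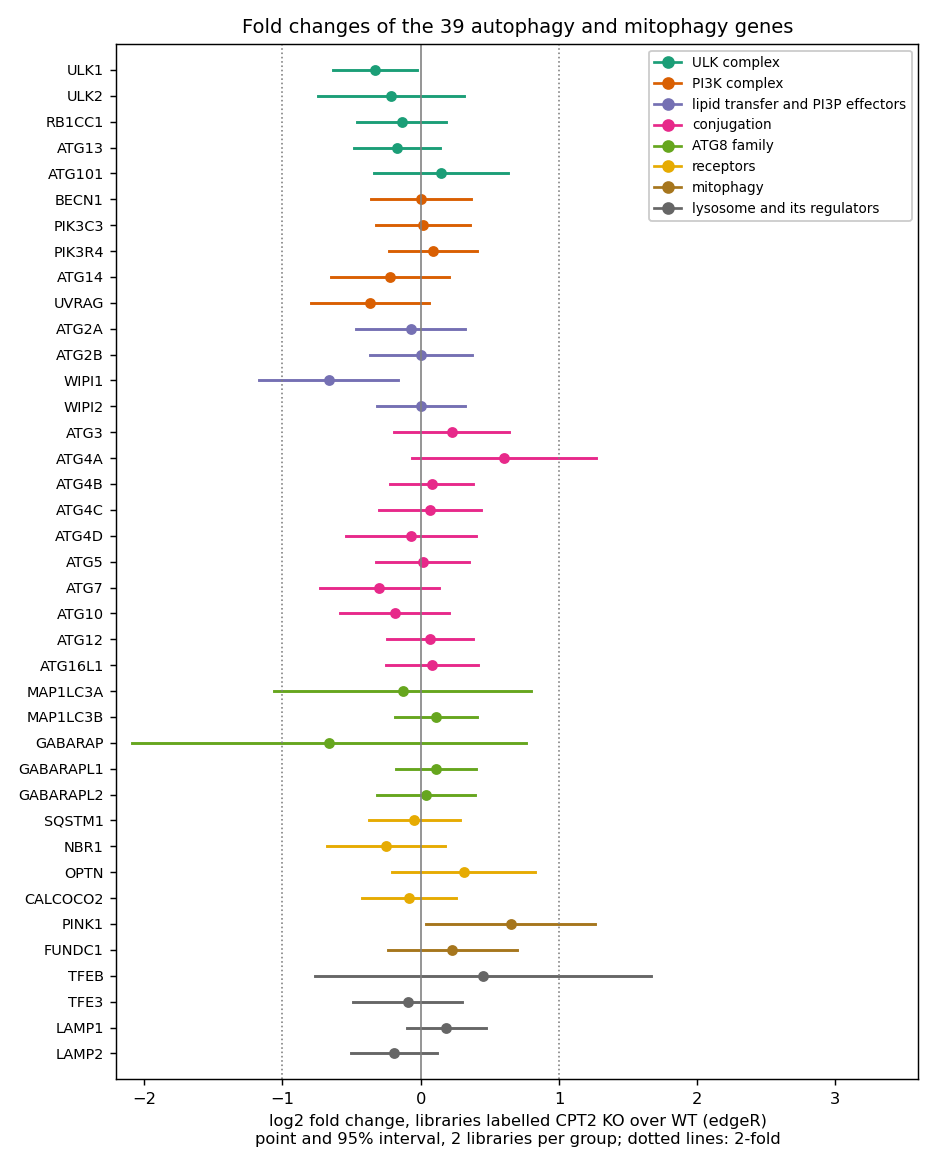
Log2 fold change (libraries labelled CPT2 KO over WT, edgeR) of each of the 39 members as a point with its 95% interval, coloured by role, 2 libraries per group. The points lie between -0.67 and 0.65, and the intervals of 33 members stay between the dotted 2-fold lines.

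The median absolute log2 ratio over the members was 0.13 between the replicates labelled WT and 0.13 between the CPT2 KO-labelled ones. It was 0.14 to 0.20 for the 4 pairs that cross the groups, each above both pairs within a group, the closest at 0.138 against 0.133. The same median over all tested genes was 0.258 between WT-labelled replicates and 0.214 between CPT2 KO-labelled ones. Pairs that cross the groups then had 0.196 to 0.350. Replicate 2 labelled WT gave 0.196 and 0.229 with the CPT2 KO-labelled libraries, both below the value between WT-labelled replicates. Whether the order seen in the members exceeds replicate spread was not tested. In 10 members both CPT2 KO-labelled libraries lay above both labelled WT, and in 8 both lay below. Over all tested genes the shares were 21.1% above and 19.8% below. Replicate 1 labelled WT, the library that stood apart, was the highest of the 4 for 13 members and the lowest for 13, and over all tested genes it was the highest for 31.8% and the lowest for 32.5%.

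**Figure D2:**
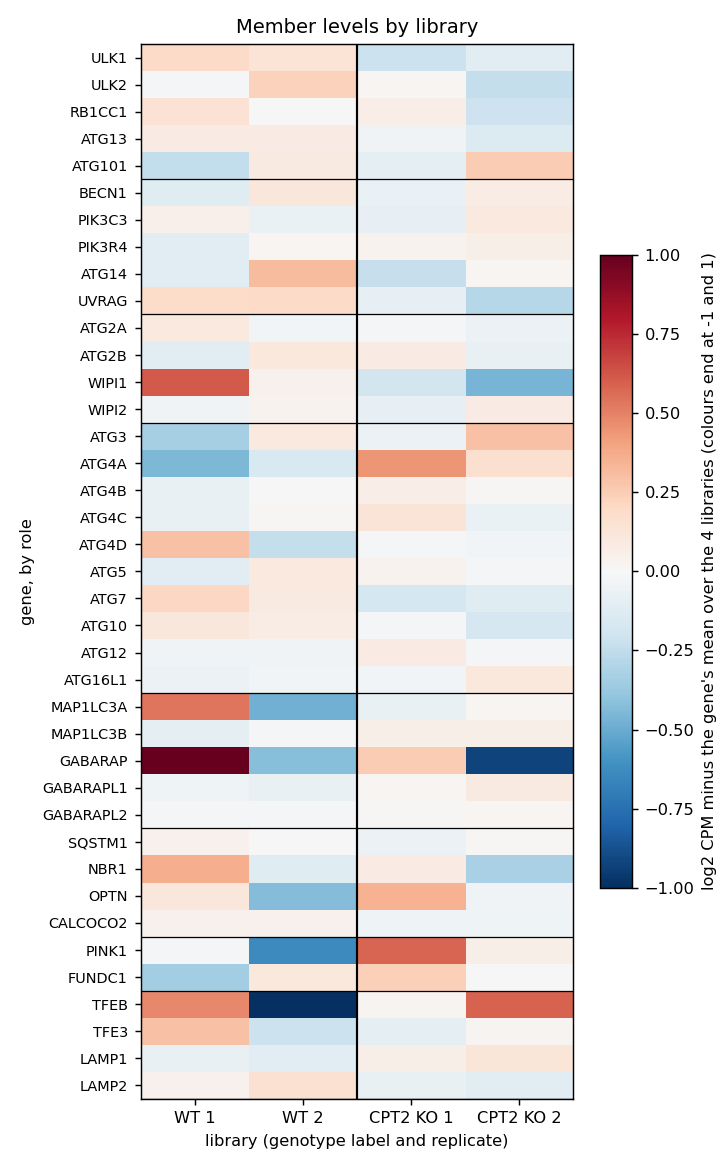
Level of each member in each library as log2 CPM minus the gene's mean over the 4 libraries, with genes grouped by role and colours ending at -1 and 1. GABARAP and TFEB show the strongest colours, and GABARAPL2, SQSTM1 and CALCOCO2 are nearly blank in all 4 libraries.

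The complex that starts autophagy consists of the kinases ULK1 or ULK2 with RB1CC1 (also called FIP200), the scaffold on which it assembles, ATG13 and ATG101. Of these 5 genes 0 were called, and 4 had negative log2 fold changes (median -0.17). ULK1, the main kinase of the complex, on chromosome 12 at 131894651 to 131923167 (GRCh38, plus strand), stood at 88.8 and 85.7 CPM in the WT-labelled libraries and at 67.1 and 71.8 CPM in the CPT2 KO-labelled ones. The groups did not overlap, with means of 87.3 ± 2.24 and 69.4 ± 3.32 CPM (SD, n = 2 each). The log2 fold change was -0.33 (SE 0.14, 95% interval -0.63 to -0.03, edgeR adjusted p = 0.521), and it stayed between -0.38 and -0.28 over 12 alternative analyses, with adjusted p from 0.200 to 1. ATG13, which links the kinase to the scaffold, stood at 68.2 and 68.3 CPM against 62.8 and 58.6 CPM, again without overlap (log2 fold change -0.17, 95% interval -0.48 to 0.14). RB1CC1 stood at 151 and 136 CPM against 143 and 118 CPM and ATG101 at 13.2 and 16.6 CPM against 14.6 and 18.6 CPM, and their groups overlapped. ATG101 shares 19.2% of its exon bases with AC025259.1 on the opposite strand, which had 0 counts in all 4 libraries. ULK2, the paralogue of ULK1, stood at 9.16 and 10.9 CPM against 9.40 and 7.83 CPM (log2 fold change -0.21, 95% interval -0.74 to 0.32). Per kilobase, ULK2 supplied 7.38% to 9.77% of the sum of both kinases in the 4 libraries. RB1CC1 had the highest level per length of the complex (15.5 to 19.8 CPM per kilobase) and ULK2 the lowest (0.794 to 1.10).

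The lipid kinase complex gave 0 calls among 5 genes, with a median of 0.0038. BECN1, its regulatory core, stood at 34.1 and 40.0 CPM in the WT-labelled libraries and at 35.5 and 38.9 CPM in the CPT2 KO-labelled ones. Of its exon bases 17.1% are shared with CNTD1 and PSME3 on the opposite strand. PIK3C3, the catalytic subunit that makes PI3P, stood at 51.5 and 47.6 CPM against 47.0 and 53.3 CPM. Both had overlapping groups, and their 95% intervals ran from -0.36 to 0.37 and from -0.32 to 0.35 on the log2 scale. PIK3R4, the subunit that holds the kinase, had the highest level per length of the complex, at 9.84 to 11 CPM per kilobase, and a log2 fold change of 0.09. ATG14 and UVRAG are alternative subunits, of which ATG14 directs the complex to forming autophagosomes and UVRAG to endosomes. ATG14 stood at 27.9 and 37.2 CPM against 25.6 and 30.4 CPM, and the groups overlapped (log2 fold change -0.22, 95% interval -0.65 to 0.20). UVRAG stood at 19.5 CPM in both WT-labelled libraries and at 16.1 and 14 CPM in the CPT2 KO-labelled ones. It had the lowest level per length of the complex (1.91 to 2.66 CPM per kilobase), did not overlap between groups and was not called (log2 fold change -0.37, SE 0.19, 95% interval -0.79 to 0.06, edgeR adjusted p = 0.600).

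WIPI1 and WIPI2 bind the PI3P mark, and ATG2A and ATG2B, their partners, carry lipids into the growing membrane. WIPI1, on chromosome 17 at 68420948 to 68457513 (GRCh38, minus strand), had the most negative log2 fold change of all members and was the 1 member called in any alternative. It stood at 30.9 and 20.8 CPM in replicates 1 and 2 of the WT label and at 17.9 and 14.6 CPM in the CPT2 KO-labelled ones. The groups did not overlap, but the WT-labelled libraries lay further apart from each other than replicate 2 labelled WT lay from replicate 1 labelled CPT2 KO. The log2 fold change was -0.67 (SE 0.23, 95% interval -1.17 to -0.16, edgeR adjusted p = 0.407). It was -0.92 without replicate 2 labelled WT, the setting that called it (edgeR adjusted p = 0.00539), and -0.35 without replicate 1 labelled WT (0.966), and over all alternatives the adjusted p ran from 0.00539 to 1. Without replicate 2, the group labelled WT is the library that stood apart alone, and 6.16% of all tested genes were called in that setting. Of the exon bases of WIPI1 in GENCODE 29, 24.3% are also exon bases of ARSG, a sulfatase gene on the opposite strand. Whether the counting used strand is not given in the sources used here, so reads from both genes cannot be told apart there. ARSG had 245 and 212 counts against 184 and 123 (log2 fold change -0.50, 95% interval -1.05 to 0.04, edgeR adjusted p = 0.582).

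WIPI2, the paralogue that recruits the conjugation machinery, showed no such spread. It stood at 67.2 and 70.2 CPM against 65.0 and 72.6 CPM (log2 fold change 0.0015, 95% interval -0.31 to 0.32). Per kilobase, WIPI1 made up 54.9% and 43.9% of the sum of both WIPI genes in the WT-labelled libraries and 42.1% and 34.7% in the CPT2 KO-labelled ones. The groups of this share do not overlap, but with 2 libraries each an exact permutation test of the log2 ratio of WIPI1 to WIPI2 cannot go below p = 0.333, the value it gave (two-sided, difference -0.65). ATG2A stood at 22.5 and 20.6 CPM against 20.8 and 20.2 CPM, and ATG2B at 33.0 and 38.3 CPM against 37.6 and 33.8 CPM. Neither ATG2 gene was called, and per kilobase they were expressed in similar amounts, ATG2A being 49.5% to 55.4% of their sum. Per length WIPI2 was at 7.23 to 8.08 CPM per kilobase and ATG2B, at 2.32 to 2.69, had the lowest mean of the 4 genes, with ATG2A lower in replicate 2 labelled WT.

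The conjugation system gave 0 calls among 10 genes, 7 with positive and 3 with negative log2 fold changes (median 0.07). ATG7 is its activating enzyme, ATG3 and ATG10 are its transfer enzymes, and ATG12, ATG5 and ATG16L1 form the complex that places ATG8 proteins on the membrane. ATG5, ATG12 and ATG16L1, none of them called, had log2 fold changes of 0.01, 0.07 and 0.08, with 95% intervals inside -0.33 to 0.42. ATG7 stood at 18.2 and 16.7 CPM in the WT-labelled libraries and at 13.9 and 14.5 CPM in the CPT2 KO-labelled ones, without overlap between groups (log2 fold change -0.30, SE 0.19, 95% interval -0.73 to 0.13, edgeR adjusted p = 0.664). It shares 18.1% of its exon bases with VGLL4 on the opposite strand, whose log2 fold change was -0.39 (edgeR adjusted p = 0.576), so the reads of the shared part are uncertain. ATG3 stood at 40.1 and 54.1 CPM against 48.3 and 61.8 CPM, and its groups overlapped (log2 fold change 0.22, 95% interval -0.20 to 0.64). ATG10 stood at 22.9 and 22.3 CPM against 20.8 and 18.8 CPM (log2 fold change -0.19). It shares 6.86% of its exon bases with RPS23 on the opposite strand, which had 7026 to 9246 counts a library.

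The 4 ATG4 proteases cut ATG8 precursors so that they can be conjugated and later release them from membranes. ATG4A, on chromosome X at 108091668 to 108154671 (GRCh38, plus strand), had the largest log2 fold change of the conjugation system. It had 62 and 85 counts in the WT-labelled libraries and 126 and 85 in the CPT2 KO-labelled ones, or 3.36 and 4.13 CPM against 6.24 and 5.12 CPM. The groups did not overlap in CPM, and the log2 fold change was 0.60 (SE 0.30, 95% interval -0.06 to 1.27, edgeR adjusted p = 0.591). It ranged from 0.45 to 0.77 over the alternatives, with adjusted p from 0.299 to 1. ATG4B, the most active of the proteases on most ATG8 proteins, stood at 75.7 and 79.6 CPM against 83.7 and 80.3 CPM (log2 fold change 0.08). ATG4C stood at 29.2 and 30.9 CPM against 33.6 and 29.3 CPM. ATG4D stood at 25.0 and 17.3 CPM against 20.1 and 20.0 CPM and shares 15% of its exon bases with KRI1 on the opposite strand. Per kilobase, ATG4B supplied 34.7% to 38.8% of the sum of the 4 proteases and ATG4A 3.49% to 6.20%. Within the conjugation system ATG4B also had the highest level per length (11.4 to 12.6 CPM per kilobase) and ATG4A and ATG7 the lowest (1.15 to 2.13 and 1.57 to 2.06).

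By counted level per length the ATG8 family ranked in the same order in all 4 libraries, from GABARAPL1 down to GABARAP. GABARAPL1, on chromosome 12 at 10212458 to 10223130 (GRCh38, plus strand), had the highest level per length of all 39 members, at 27.8 to 31.2 CPM per kilobase, and supplied 47.9% to 49.9% of the family's summed level per length. MAP1LC3B, the LC3 form most used as an autophagosome marker, supplied 28.1% to 30.5%, GABARAPL2 16.7% to 17.7%, and MAP1LC3A 2.71% to 5.31%. The difference between groups in the log2 ratio of GABARAPL1 to MAP1LC3B was 0.0029, with single libraries between 0.35 and 0.46. GABARAPL1 stood at 115 and 113 CPM in the WT-labelled libraries and at 120 and 126 CPM in the CPT2 KO-labelled ones (log2 fold change 0.11, 95% interval -0.18 to 0.40). MAP1LC3B stood at 83.9 and 88.3 CPM against 92.9 CPM in both (log2 fold change 0.11, 95% interval -0.19 to 0.41). GABARAPL2 stood at 30.4 and 30.6 CPM against 31.1 and 31.3 CPM (log2 fold change 0.04). For all 3 genes both CPT2 KO-labelled libraries lay above both WT-labelled ones, by amounts that the test did not call. The share of all tested genes that lay above in this way was 21.1%.

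MAP1LC3A and GABARAP were at low counts. MAP1LC3A had 67 and 37 counts against 48 and 42, and its groups overlapped (log2 fold change -0.13, 95% interval -1.06 to 0.80). GABARAP had 36 and 14 counts against 22 and 8, the lowest count of any member in any library (log2 fold change -0.66, 95% interval -2.09 to 0.76, edgeR adjusted p = 0.775). Of its exon bases 55.7% are shared with other genes in GENCODE 29: 30.5% with AC120057.2, which lies on the same strand and had 0 counts in all 4 libraries, and 25.2% with AC120057.3 on the opposite strand, which had 0 to 2. Reads that fall in shared bases can be left out or assigned to another gene, so the level of GABARAP is uncertain and its place in the family is not compared further. The shares given for the whole family use its counted level and are uncertain to that extent. Leaving GABARAP out, GABARAPL1 supplied 48.7% to 50.1% of the summed level per length of the ATG8 genes that remain.

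**Figure D3:**
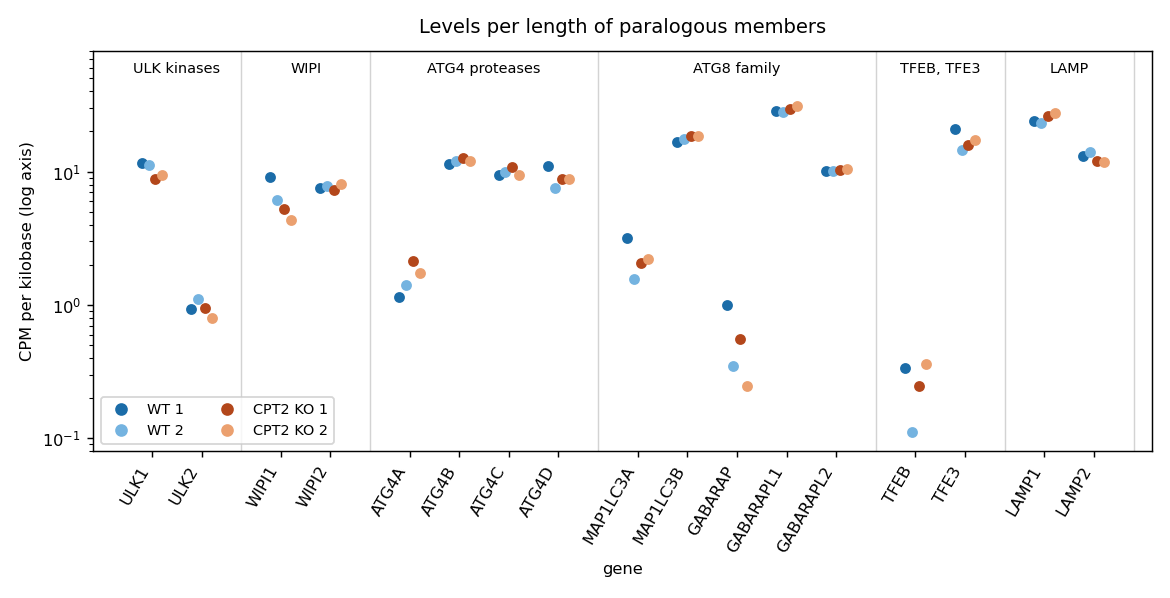
Level of paralogous members in each of the 4 libraries as CPM per kilobase of gene length, on a log axis. GABARAPL1 and MAP1LC3B lie above the other ATG8 genes in every library, ULK2, ATG4A and TFEB lie below their paralogues, and WIPI1 lies above WIPI2 only in replicate 1 labelled WT. The level of GABARAP is uncertain, since 55.7% of its exon bases are shared with other genes in GENCODE 29.

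The receptors that tie cargo to ATG8 proteins gave 0 calls among 4 genes (median -0.07). SQSTM1, better known as p62, a receptor for ubiquitinated cargo that is itself degraded by autophagy, stood at 45.8 and 44.6 CPM in the WT-labelled libraries and at 42.7 and 44.8 CPM in the CPT2 KO-labelled ones. Its log2 fold change was -0.05 (SE 0.15, 95% interval -0.38 to 0.28), and 20.7% of its exon bases are shared with MRNIP on the opposite strand, whose log2 fold change was 0.29 (edgeR adjusted p = 0.608). NBR1, which works beside SQSTM1, stood at 121 and 86.3 CPM against 98.8 and 74.6 CPM. Replicate 1 was above replicate 2 in both groups, the groups overlapped, and the log2 fold change was -0.25 (95% interval -0.68 to 0.17). NBR1 had the highest level per length of the receptors (8.88 to 14.4 CPM per kilobase).

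OPTN and CALCOCO2 (NDP52) are the receptors that act in mitophagy driven by PINK1. OPTN stood at 20.3 and 13.9 CPM in the WT-labelled libraries and at 23.9 and 18.3 CPM in the CPT2 KO-labelled ones. The groups overlapped (log2 fold change 0.31, SE 0.23, 95% interval -0.20 to 0.83, edgeR adjusted p = 0.707). Leaving out WT replicate 1 moved the value to 0.61, leaving out WT replicate 2 to 0.06 and leaving out CPT2 KO replicate 1 to 0.10. OPTN had the lowest mean level per length of the receptors (2.70 to 4.65 CPM per kilobase), with CALCOCO2 lower in replicate 1 labelled CPT2 KO. CALCOCO2 stood at 37.7 and 37.5 CPM against 35.5 and 35.4 CPM, so the groups did not overlap although the log2 fold change was only -0.09 (95% interval -0.43 to 0.26).

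Of the mitophagy genes proper, PINK1 and FUNDC1 both had positive log2 fold changes and neither was called. PINK1, the kinase that accumulates on damaged mitochondria and marks them (chromosome 1, 20633455 to 20651511, GRCh38, plus strand) had the most positive log2 fold change of all members. It had 207 and 150 counts in replicates 1 and 2 of the WT label and 343 and 196 in the CPT2 KO-labelled ones, or 11.2 and 7.28 CPM against 17 and 11.8 CPM. The groups did not overlap, but the gap between them was smaller than the distance between replicates in either group. The means were 9.25 ± 2.79 and 14.4 ± 3.65 CPM (SD, n = 2 each), and the log2 fold change was 0.65 (SE 0.27, 95% interval 0.04 to 1.26, edgeR adjusted p = 0.523). Leaving out WT replicate 1 moved it to 0.99 (edgeR adjusted p = 0.167), WT replicate 2 to 0.37 (0.507) and CPT2 KO replicate 1 to 0.36 (0.807). Over all alternatives the adjusted p ran from 0.136 to 0.817. PINK1-AS, an antisense gene that shares 39.4% of the exon bases of PINK1, had 44 and 48 counts against 52 and 48 (log2 fold change 0.21, 95% interval -0.58 to 1), and reads of the shared part cannot be told apart without strand. FUNDC1, an outer-membrane receptor, stood at 15.3 and 21.0 CPM against 23.1 and 19.5 CPM, with replicate 1 labelled WT the lowest and overlapping groups (log2 fold change 0.23, 95% interval -0.24 to 0.70).

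The surrounding autophagy genes, 36 more components and receptors, included 34 with enough counts, of which 0 were called in edgeR (median 0.01, 17 positive and 17 negative). Before adjustment 2 had p under 0.05 in the higher direction and 1 in the lower. TOMM7, a small subunit of the outer-membrane import complex that helps to hold PINK1 there, was the 1 gene of this list called with DESeq2. TOMM7 was also the 1 gene of the list called with no filter on low counts and with replicate number as a block. It stood at 46.8 and 59.9 CPM in the WT-labelled libraries and at 92.1 and 94.3 CPM in the CPT2 KO-labelled ones. The log2 fold change was 0.80 (SE 0.16, 95% interval 0.45 to 1.15, edgeR adjusted p = 0.0770, and DESeq2 adjusted p = 0.00405). It was 0.64 without replicate 1 labelled WT (edgeR adjusted p = 0.103) and 0.99 without replicate 2 (0.000194), and over all alternatives the adjusted p ran from 0.000194 to 0.436.

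The hypoxia-inducible mitophagy receptors BNIP3 and BNIP3L followed a single library. BNIP3 stood at 593 and 116 CPM in replicates 1 and 2 of the WT label and at 199 and 107 CPM in the CPT2 KO-labelled ones (log2 fold change -1.21, SE 1.11, edgeR adjusted p = 0.797). BNIP3L stood at 220 and 74.7 CPM against 83.2 and 63.2 CPM (log2 fold change -1.01, SE 0.68, edgeR adjusted p = 0.729). Replicate 1 labelled WT was far above the other 3 libraries for both, and it was also the library with the high hypoxia-response sum. Without it the log2 fold changes were 0.40 for BNIP3 and -0.03 for BNIP3L. Without replicate 2 labelled WT they were -1.95 and -1.59. Of the 20 hypoxia-response genes 0 were called with all 4 libraries (median -0.96, all 20 negative, 0 with p under 0.05 before adjustment), and EGLN1, P4HA2 and NDRG1 had log2 fold changes of -1.93, -1.72 and -1.72. Leaving out replicate 1 labelled WT moved the median to 0.24, and leaving out replicate 2 moved it to -1.64. WDR45B, a PI3P-binding relative of the WIPI proteins, stood at 255 and 117 CPM against 130 and 126 CPM, with the same library high. Its log2 fold change was -0.53 with all libraries and 0.13 without replicate 1 labelled WT.

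**Figure D4:**
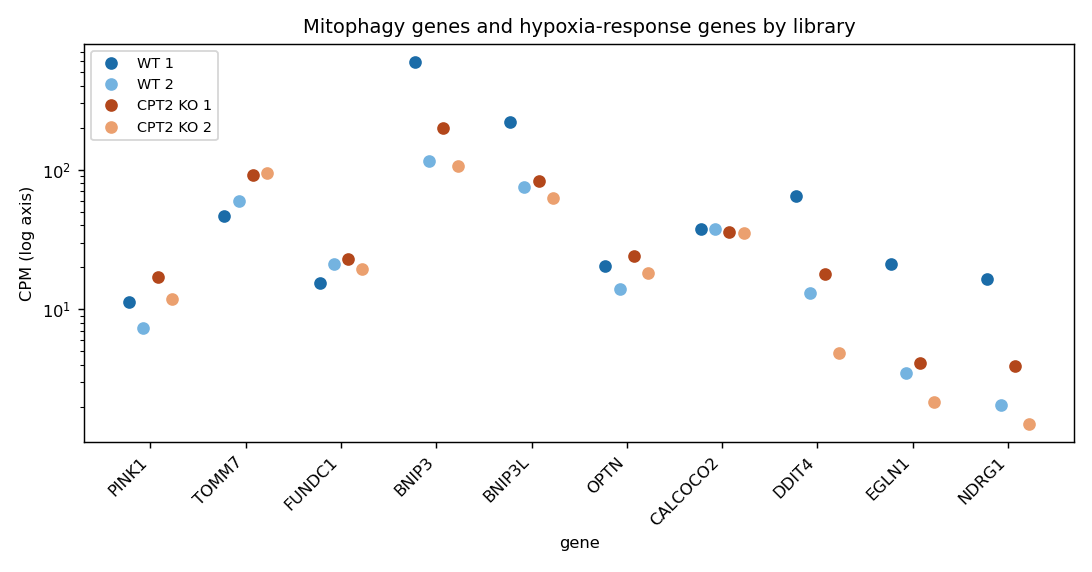
CPM of mitophagy genes, of the hypoxia-response genes EGLN1 and NDRG1, and of DDIT4 in each of the 4 libraries, on a log axis. DDIT4 is listed with the mTORC1 and AMPK genes below. BNIP3, BNIP3L, DDIT4, EGLN1 and NDRG1 are highest in replicate 1 labelled WT, while PINK1 and TOMM7 are higher in both CPT2 KO-labelled libraries than in both labelled WT.

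The lysosomal end of the pathway was represented by TFEB and TFE3, the transcription factors that switch on lysosome and autophagy genes, and by LAMP1 and LAMP2, the main proteins of the lysosomal membrane. Of these 4 genes 0 were called (median 0.05). TFEB had 35 and 13 counts in the WT-labelled libraries and 28 and 34 in the CPT2 KO-labelled ones, so the groups overlapped and the interval was wide (log2 fold change 0.45, 95% interval -0.76 to 1.67). TFE3 stood at 87.5 and 61.5 CPM against 66.9 and 72.7 CPM, with replicate 1 labelled WT the highest and overlapping groups (log2 fold change -0.09, 95% interval -0.49 to 0.30). Per kilobase TFE3 made up 97.9% to 99.2% of the sum of both factors, and TFEB had the lowest mean level per length of all 39 members (0.112 to 0.363 CPM per kilobase), although GABARAP was lower in replicate 2 labelled CPT2 KO.

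LAMP1, on chromosome 13 at 113297241 to 113323672 (GRCh38, plus strand), stood at 137 and 134 CPM in the WT-labelled libraries and at 151 and 157 CPM in the CPT2 KO-labelled ones. LAMP2, on chromosome X at 120427827 to 120469365 (minus strand), stood at 72.6 and 78.1 CPM against 66.8 and 65.0 CPM. The groups did not overlap for either gene, in opposite directions, and neither was called (log2 fold changes 0.19 and -0.19, SE 0.13 and 0.14, edgeR adjusted p = 0.690 and 0.695). Per kilobase LAMP1 made up 64.5% and 62.2% of the sum of both genes in the WT-labelled libraries and 68.4% and 70.0% in the CPT2 KO-labelled ones. An exact permutation test of the log2 ratio of LAMP1 to LAMP2 (difference 0.38) gave two-sided p = 0.333, the smallest that 2 libraries against 2 allow.

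TFEB and TFE3 bind a short palindrome, CACGTG, within the element that marks lysosomal and autophagy promoters. It was searched, on both strands at once since it equals its own reverse complement, in the 300 bases around gene starts (250 before and 50 after) that RefSeq gives on GRCh38.p14, in which 33 of the 39 members were matched by symbol. RB1CC1, UVRAG, ATG4D, MAP1LC3A, PINK1 and LAMP2 were not analysed here. The palindrome was present in 3 of the 33, ATG3, ATG14 and LAMP1 (9.09% of members). The 33 members had 41 entries, and each of the 3 held the palindrome in 1 entry. Of all 35116 entries, counted singly and not by gene, 7.26% held it, so the 2 percentages are not counted alike. The promoter of LAMP1 is shown because it held 5 copies in the 250 bases before the start, a number that 1 entry of the 35116 reached, and ATG3 and ATG14 are shown by 30 bases around their copy. Capitals mark the palindrome, and each line reads 5′ to 3′ on the strand of the gene.
LAMP1 (chr13:113296989-113297238, plus strand): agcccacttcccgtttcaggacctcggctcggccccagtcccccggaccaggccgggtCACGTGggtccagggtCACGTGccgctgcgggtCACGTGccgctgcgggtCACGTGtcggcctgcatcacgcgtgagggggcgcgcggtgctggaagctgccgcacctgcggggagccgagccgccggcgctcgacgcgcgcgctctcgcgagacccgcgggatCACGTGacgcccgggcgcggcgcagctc
ATG3 (chr3:112561963-112561992, minus strand): cctttctcacgtCACGTGccgggagagtct
ATG14 (chr14:55411834-55411863, minus strand): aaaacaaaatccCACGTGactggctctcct

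In LAMP1 the 5 copies began 192, 176, 159, 142 and 28 bases before the start, and another spanned it. In ATG3 and ATG14 a copy began 18 and 21 bases before the RefSeq start, and ATG3 had another just after it. GENCODE 29 starts these minus-strand genes further upstream, at 112562046 and 55411858, so there the copies lie inside the genes. The 250 bases before the RefSeq start also hold exon bases of both genes, and for ATG3 of SLC35A5. The 3 genes with the palindrome did not share a direction, with log2 fold changes of 0.19 for LAMP1, 0.22 for ATG3 and -0.22 for ATG14. A match describes these letters only and does not show that a factor binds there.

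Lysosomal genes outside the members, 33 in all, included 32 with enough counts. Most encode enzymes, membrane proteins and pump subunits, and MITF and LAMTOR1 are among them. In edgeR 0 were called, 16 log2 fold changes were positive and 16 negative, and the median was -0.0007. Before adjustment 1 had p under 0.05 in the higher direction and 2 in the lower. CTSD, the protease cathepsin D, stood at 55.6 and 45.1 CPM against 39.4 and 53.9 CPM, with overlapping groups, and shares 52.7% of its exon bases with other genes. ATP6V1A, the catalytic subunit of the proton pump that acidifies lysosomes, stood at 95.9 and 110 CPM against 119 and 113 CPM (log2 fold change 0.17, 95% interval -0.14 to 0.48). GAA, the enzyme that digests lysosomal glycogen, stood at 68.5 and 51.2 CPM against 45.8 and 38.9 CPM. Its log2 fold change of -0.50 was not called (edgeR adjusted p = 0.431, and 0.0124 to 1 over the alternatives). Leaving out replicate 1 labelled WT moved it to -0.27. Leaving out replicate 2 moved it to -0.69, the setting that called it.

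Upstream of the machinery, the nutrient-sensing kinase complex mTORC1 holds ULK1 and TFEB inactive and the energy sensor AMPK activates ULK1. Among 26 genes of both pathways 0 were called in edgeR, 6 log2 fold changes were positive and 20 negative, and the median was -0.09. All tested genes split into 8834 positive and 8730 negative. The median level of the 26 genes had a replicate SD of 0.10 on the log2 scale. Before adjustment 0 of the 26 had p under 0.05 in the higher direction and 1 in the lower. That gene was PRKAA2, a catalytic subunit of AMPK, at 42.8 and 24.1 CPM in replicates 1 and 2 of the WT label and at 24.5 and 17 CPM in the CPT2 KO-labelled ones. Its log2 fold change was -0.68 (SE 0.29, edgeR adjusted p = 0.547), -0.21 without replicate 1 labelled WT (0.999) and -1.03 without replicate 2 (0.000912), and over all alternatives the adjusted p ran from 0.000912 to 1. DDIT4, a stress-induced inhibitor of mTORC1, stood at 64.6 and 13.0 CPM against 17.8 and 4.82 CPM (log2 fold change -1.75, SE 1.30, edgeR adjusted p = 0.754). Leaving out replicate 1 labelled WT moved it to -0.16, and leaving out replicate 1 labelled CPT2 KO moved it to -3.00. FLCN, which acts on mTORC1 at the lysosome, stood at 29.8 and 17.4 CPM against 19.1 and 17.4 CPM (log2 fold change -0.37, and 0.07 without replicate 1 labelled WT). Replicate 1 labelled WT was the highest of the 4 libraries for all 3 genes, and the part of the hypoxia-response level in them was not tested.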

How the data were processed

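The submitters' processing notes name HISAT2 2.1.0, featureCounts 1.6.4 and the build hg38 (GRCh38). The authors deposited raw counts of reads for each gene symbol, beside gene lengths, per the file headers. Annotation release, strand setting and the treatment of reads with several alignments were not given in the sources used.

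From these counts, genes were kept with filterByExpr by group and tested in R 4.3.3 with the quasi-likelihood test of edgeR 4.0.16 (TMM scaling, robust, group as the only term, Benjamini-Hochberg adjustment over 17564 genes, threshold 0.05). The SE is the log2 fold change divided by the square root of F. Alternatives were other scalings and filters, DESeq2 1.42.0, limma-voom (limma 3.58.1), a replicate block and each library left out. The script was tested on simulated data.

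The members and gene lists were chosen with earlier results of these data known. All members are given by role, with values in every library for the largest change and the highest and lowest levels in each role, and, of the surrounding lists, for 6 fixed genes, of which 1 is not reported here, and up to 3 called in an alternative. Overlapping partners of members were added after their values were seen. Positions and exon overlaps come from GENCODE 29, in which 39 of 39 members had a single position. The gene length in the count table equalled the GENCODE 29 exon bases for 16 of the 39. The shared percentages therefore describe GENCODE 29 and need not hold for the genes as counted.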

Additional observations from a re-analysis of the deposited data

How the results depend on the processing

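Over 12 alternatives the 39 members gave 468 values, of which 434 kept direction and side of the threshold, 1 passed it (WIPI1 without replicate 2 labelled WT) and 33 turned sign, and 25 members kept their sign throughout. All of the turned values belonged to members not called in either analysis. With each library left out, where the lone library of a group is assumed to vary like the other group, the number of members called ran from 0 to 1, of further autophagy genes from 0 to 4, of mTORC1 and AMPK genes from 0 to 2, of lysosome genes from 0 to 1, of hypoxia genes from 0 to 14 and of all tested genes from 24 to 1133. The medians ran from -0.051 to 0.022 for the members, -0.021 to 0.089 for further autophagy, -0.047 to 0.072 for lysosome and -1.64 to 0.24 for hypoxia genes. The replicate number as a block gave 373 calls among all genes, 0 members, 1 further autophagy gene, 2 mTORC1 and AMPK genes (PRKAA2 and DDIT4) and 2 hypoxia genes. The replicates share only a number, and the correlation of replicate 1 minus replicate 2 between the groups was 0.17. All genes gave 73 calls with edgeR, 195 with DESeq2 and 124 with no filter on low counts, and each of the last 2 called 1 further autophagy gene. Scaling by library size gave medians of -0.018 for the members and -0.023 for lysosome genes, which were 0.022 with at least 1 CPM in 2 libraries and 0.044 with limma-voom. Scaling by library size turned the values of BECN1 (-0.018), PIK3C3 (-0.0057), ATG2B (-0.018), WIPI2 (-0.021) and ATG5 (-0.0081). No filter turned BECN1 (-0.0061), ATG2B (-0.0064) and WIPI2 (-0.0084), and DESeq2 size factors, DESeq2 and limma-voom turned WIPI2 (-0.0017, -0.0016 and -0.0026), the first 2 also ATG2B (-0.00037 and -0.00048). Leaving out a library turned ATG101 (-0.029 to 0.33), BECN1 (-0.11 to 0.12), PIK3C3 (-0.075 to 0.11), ATG14 (-0.42 to 0.00053), ATG2B (-0.099 to 0.12), WIPI2 (-0.078 to 0.080), ATG4C (-0.033 to 0.16), ATG4D (-0.31 to 0.22), ATG5 (-0.087 to 0.12), MAP1LC3A (-0.57 to 0.44), GABARAP (-1.41 to 0.26), NBR1 (-0.47 to 0.0098), TFEB (-0.17 to 1.41), TFE3 (-0.33 to 0.18), BNIP3 (-1.95 to 0.40), CTSD (-0.35 to 0.099), WDR45B (-0.99 to 0.13), FLCN (-0.70 to 0.068), P4HA2 (-2.58 to 0.72) and NDRG1 (-2.61 to 0.46). The cause of these changes was not tested. GABARAP, TFEB and MAP1LC3A, the members with the fewest counts (8 to 67 a library), had the widest intervals.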
